A study of Mus musculus with 2 samples.

Results

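Midkine and pleiotrophin are the members of a small family of secreted, heparin-binding growth factors. The genes described here are the 2 ligands and 8 genes for their reported receptors and co-receptors, 10 of the 18194 genes that the array's annotation names singly. They were chosen by the lower midkine signal of the Malat1 knockout array, so the midkine difference is a description and supports nothing further. All 28 probe sets paired with 1 of the 10 symbols were taken. The cells were mouse embryonic fibroblasts (MEFs), which grow out of dissociated embryos as a mixed connective tissue culture. The wildtype culture and the Malat1 knockout culture both came from C57BL/6 embryos of day 13.5, were kept for 2 weeks and received no treatment. Malat1 is a nuclear long noncoding RNA, and the labels do not state how the gene was disrupted, which cells carry the change besides these, or how many embryos gave each culture. One Affymetrix Mouse430_2 array was hybridized per genotype, so n = 1 in each group, no difference has a replicate check and no test is given.

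Midkine (gene Mdk) was first found as a transcript induced by retinoic acid, and both ligands are made in embryonic tissues where epithelium or nerve meets mesenchyme. They bind the sulfated sugar chains of proteoglycans on the cell surface, chiefly heparan sulfate and chondroitin sulfate, and act on cell growth, migration and neurite outgrowth. Ptprz1, a receptor tyrosine phosphatase that carries chondroitin sulfate, is held inactive by pleiotrophin, while syndecans, nucleolin, the endocytic receptor Lrp1 and the receptor kinase Alk have each been described as binding partners.

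The deposited values were taken as log2 signals, and a probe set was counted as measured at or above the floor of its array, which was its median signal (5.39 on the wildtype array, 5.44 on the knockout array, each over 45037 probe sets that are not controls). The brightest Malat1 probe set read 9.80 on the wildtype array and 4.53, below the floor, on the knockout array, in the direction of the labels. The arrays also differed in sex-linked RNAs, with Xist at 4.50 and 11.49 and the Y-linked Eif2s3y at 8.57 and 2.81, so genotype and sex of the embryos cannot be told apart in any difference below. All 10 fibroblast markers were measured on both arrays, among them Col1a1 at 12.71 and 11.76 and Pdgfra at 8.20 and 7.47. Over the 11295 genes measured on both arrays the median difference, knockout minus wildtype, was -0.05 log2 units.

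Mdk was the 1 gene of the 10 with a difference of 2-fold or more between the arrays. Its only probe set, 1416006_at, had a signal of 9.26 on the wildtype array and 7.78 on the knockout array. The knockout signal was thus 1.48 log2 units below that of the wildtype, a 2.79-fold lower signal, and both readings lay well above the floor. The Mdk difference ranked 8 from the lowest of all genes measured on both arrays, which restates the value by which the genes were chosen. With the median difference of measured probe sets set to 0 it was -1.42, a shift that cannot change a rank. With quantile normalization it was -1.38 and with loess centring -1.38, and it kept that rank under both. In a mixed culture, fewer midkine-producing cells and less midkine RNA per cell cannot be told apart. No second probe set carries the symbol Mdk in the annotation used, and probe sets without a symbol were not searched for its transcript.

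At least 2-fold lower signals were found for 30 of the 11295 genes, or 0.266%, and at least 2-fold higher ones for 8, or 0.0708%. The split was 25 and 11 with the median difference set to 0, 22 and 12 with quantile normalization and 23 and 11 with loess centring. At 1.5-fold the shares were 1.61% lower and 0.832% higher. Of the 9 members measured on both arrays, Mdk was the single one past either size, and none was higher by 1.5-fold. Since Mdk was the reason for the choice, nothing is read from that count.

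**Figure D1:**
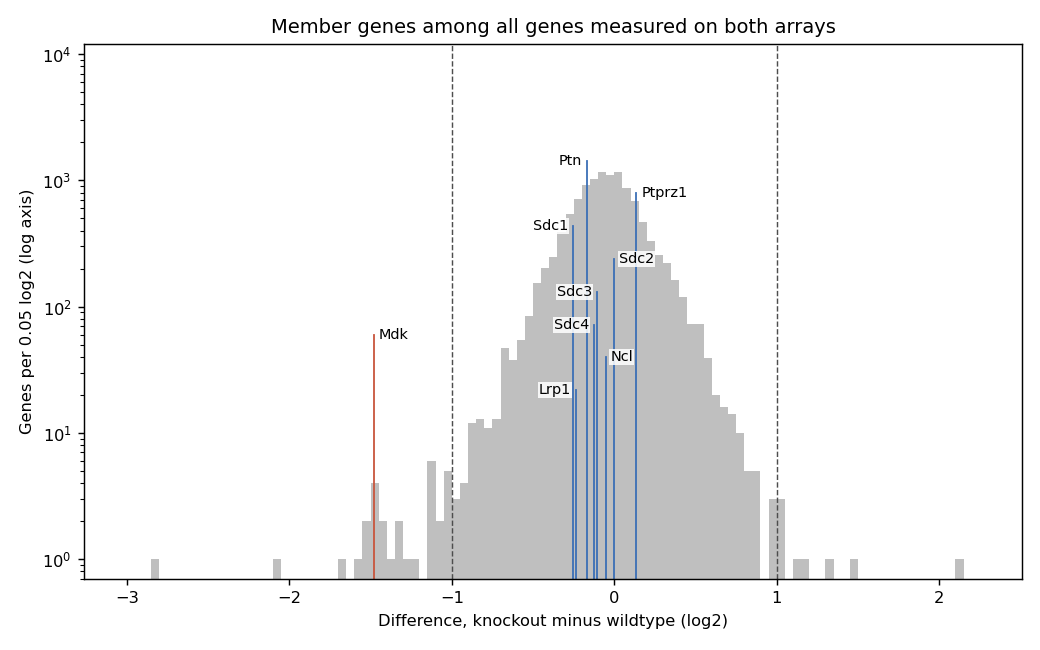
Number of genes (log axis) by the difference between the knockout and the wildtype signal in log2 units, over the 11295 genes measured on both arrays, with dashed lines at 2-fold. Vertical lines mark 9 member genes at heights that carry no value: Mdk lies at -1.48 and the other 8 lie between -0.26 and 0.14.

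The second ligand did not share the midkine difference. Ptn, which encodes pleiotrophin, had 3 measured probe sets. The wildtype signal was 12.20 and the knockout signal 12.03 for the brightest, 10.64 and 10.65 for the next, and 6.95 and 7.11 for the dimmest. The differences of -0.17, 0.02 and 0.16 had no common direction, and the brightest stayed negative under the other 3 scalings (-0.16 to -0.11) while the remaining ones stayed positive. Between probe sets of the same gene the pooled SD of the difference was 0.199 over 4883 genes with several measured probe sets, and each Ptn difference was smaller than that. Signals of different probe sets cannot be compared as amounts, so whether these cells hold more pleiotrophin or midkine RNA cannot be read from the arrays.

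Ptprz1, the phosphatase receptor best known from glia and neural precursors, was measured on both arrays by 2 of its 3 probe sets. They read 7.66 and 6.70 in the wildtype and 7.80 and 6.81 in the knockout, differences of 0.14 and 0.11. The third read 3.09 and 3.30, below the floor on both. Both measured probe sets were slightly higher in the knockout under every scaling, by 0.11 to 0.26. With the values as deposited Ptprz1 was the 1 measured member with a higher representative signal, the representative being the one brightest on average. Of 11 neural and glial markers with a probe set, 7 were measured on both arrays, with 5 lower and 2 higher in the knockout. Their summed linear signal was 1952 in the wildtype and 2047 in the knockout. Nes, a neural precursor marker named after the values were seen, read 10.04 and 10.31, a difference of 0.28. Without it the sums of the other 6 were 900 and 773, lower in the knockout. Stmn2, a neuronal microtubule protein, read 7.76 and 7.43, a difference of -0.34, and its second probe set differed by -0.06. The glial transcription factor Sox10 read 6.05 and 6.38, and the glial markers S100b and Olig1 were below both floors. The part of these cells in the Ptprz1 signal was not tested.

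Alk, a receptor tyrosine kinase of developing neurons, was below the floor on both arrays. Its single probe set had signals of 4.59 (wildtype) and 4.75 (knockout), so no direction is given for it. The related kinase gene Ltk was below both floors as well. Of the adaptor proteins that such kinases use, all 4 with a probe set were measured. Shc1 read 8.51 and 8.06, a difference of -0.45, and its second probe set differed by 0.09 the other way. Irs1 read 10.68 and 10.85, a difference of 0.18. None of the 4 passed 1.5-fold, and their median was 0.13.

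**Figure D2:**
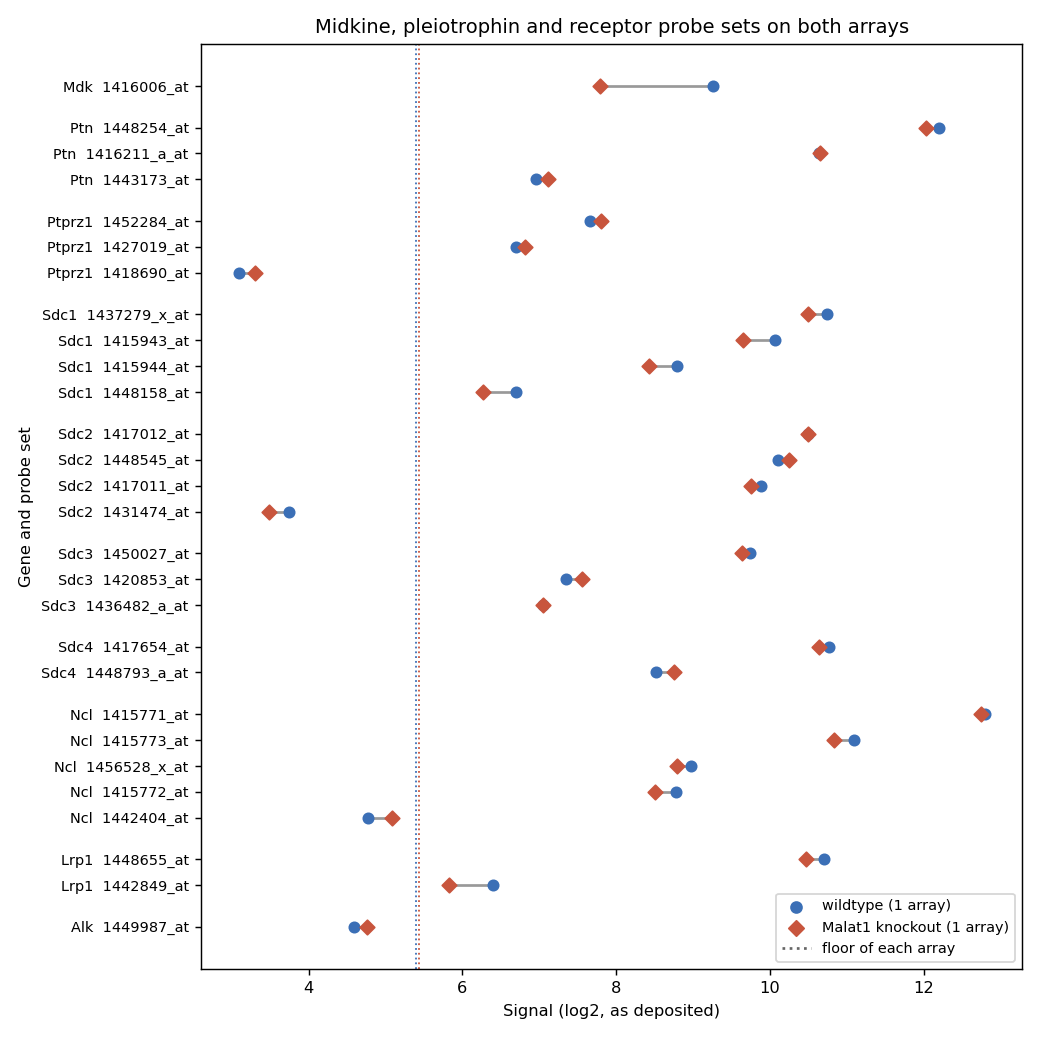
Log2 signal of every probe set of the 10 genes on the wildtype array (circles) and the Malat1 knockout array (diamonds), 1 array each, with dotted lines at the floor of each array. The Mdk symbols lie at 9.26 and 7.78, Sdc1 is lower in the knockout at all 4 probe sets, and the Alk probe set and 1 each of Ptprz1, Sdc2 and Ncl lie below the floors.

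Syndecans are transmembrane proteoglycans whose heparan sulfate chains capture heparin-binding ligands, midkine and pleiotrophin included. The family was covered by 13 probe sets, of which 12 were measured on both arrays. Sdc1 was the syndecan with the same direction throughout. Its 4 probe sets read 10.74, 10.07, 8.79 and 6.70 on the wildtype array and 10.49, 9.65, 8.42 and 6.26 in the knockout. The differences were -0.26, -0.42, -0.37 and -0.43, a mean of -0.37 with an SD of 0.0802 between probe sets, which share 1 RNA sample and are not replicates. All 4 stayed lower under the other scalings, by 0.19 to 0.39 log2 units, and none reached 1.5-fold. Of 706 genes with at least 4 measured probe sets, 29.2% were lower at every one, and this share was 15.4% to 17.8% under the other scalings. The mean difference was below that of Sdc1 for 24 of the 706 genes (3.4%).

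The promoter of Sdc1, the receptor gene with the same direction at the most probe sets besides nucleolin, is shown beside that of Ptn, the ligand gene with mixed directions. RefSeq's table for GRCm38.p6 matched 8 of the 10 members. It held no match for Mdk or Sdc2, so their promoters were not searched for any motif. The 250 bases before the annotated start are given 5′ to 3′ on the gene's strand, chr12:8771146-8771395 (plus strand) for Sdc1 and chr6:36810180-36810429 (minus strand) for Ptn. Capitals mark GGGCGG, the GC box bound by Sp1-type factors, searched on both strands.
Sdc1: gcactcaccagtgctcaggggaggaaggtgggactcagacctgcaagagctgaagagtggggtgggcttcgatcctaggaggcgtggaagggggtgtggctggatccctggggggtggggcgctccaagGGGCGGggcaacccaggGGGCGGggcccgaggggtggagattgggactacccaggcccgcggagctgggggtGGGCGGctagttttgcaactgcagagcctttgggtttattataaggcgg
Ptn: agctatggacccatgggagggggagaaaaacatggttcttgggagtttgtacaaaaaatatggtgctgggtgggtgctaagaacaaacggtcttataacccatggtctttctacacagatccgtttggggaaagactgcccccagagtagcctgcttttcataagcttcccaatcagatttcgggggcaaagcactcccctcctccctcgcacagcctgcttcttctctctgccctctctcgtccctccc
The Sdc1 window held 3 GC boxes, which began 121, 104 and 49 bases before the start and did not overlap, and the Ptn window held none. Among all 32851 promoter entries, 32.7% held at least 1 GC box and 8.47% held at least 3. Of the 8 members with an entry 7 held one, with 4 in Sdc4, 3 each in Sdc3 and Ncl, 2 in Ptprz1 and 1 each in Lrp1 and Alk. The retinoic acid receptor half-site AGGTCA, on either strand, was found in Sdc4 alone of the 8, against 14.0% of all entries. These matches describe letters in a window, not bound sites.

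Sdc2, the syndecan most typical of mesenchymal cells, was close to level between the arrays. Its 3 measured probe sets read 10.50, 10.10 and 9.89 on the wildtype array and 10.50, 10.25 and 9.75 in the knockout. The differences of 0.00, 0.14 and -0.14 centred on no change, and the fourth probe set was below both floors at 3.75 and 3.49.

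Sdc3, known from neurons and muscle precursors, read 9.74, 7.35 and 7.04 in the wildtype and 9.63, 7.56 and 7.05 in the knockout. The differences were -0.11, 0.21 and 0.01, with no common direction. Sdc4, a focal adhesion component that binds protein kinase C alpha, read 10.77 and 8.52 on the wildtype array and 10.64 and 8.75 in the knockout. Its probe sets disagreed, at -0.13 and 0.23, and kept their opposite signs under the other scalings.

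Genes for proteins that bind, signal from or shed syndecans had 13 measured members, 8 lower and 5 higher. Their median was -0.05, and 59.8% of all measured genes were lower. Timp3, an inhibitor of the metalloproteinases that release syndecan ectodomains, was the 1 member past 1.5-fold. It read 11.15 and 11.80, a difference of 0.65, while its other 3 probe sets differed by -0.22 to -0.08. Named after the values were seen, Mmp14, a membrane-bound metalloproteinase that can cleave Sdc1, read 12.09 and 11.67, a difference of -0.42, and its other 2 measured probe sets differed by -0.88 and -0.66. Prkca, the kinase that Sdc4 binds and also named after the values were seen, differed by -0.33, with its other 2 measured probe sets at -0.36 and -0.30. Mmp9 and Ezr of the same list, likewise named after the values were seen, were higher, by 0.46 and 0.47. The second measured probe set of Mmp9 differed by 0.44 and that of Ezr by -0.06.

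Ncl encodes nucleolin, an abundant nucleolar protein of ribosome synthesis, part of which has been described at the cell surface as a midkine and pleiotrophin receptor. Its 4 measured probe sets read 12.80, 11.09, 8.98 and 8.77 on the wildtype array and 12.74, 10.83, 8.79 and 8.51 in the knockout. The differences were -0.05, -0.26, -0.18 and -0.27, all lower as deposited, but the brightest turned to 0.01 with the median difference set to 0. Its remaining probe set lay below both floors at 4.77 and 5.08. As deposited, Ncl is 1 of the 29.2% of genes lower at every one of 4 or more measured probe sets. All 12 genes of the nucleolar list were measured, with 7 lower and 5 higher and a median of -0.01, a sign that turned under the other 3 scalings. By representative probe set, Polr1a and Ddx21 lay farthest from 0 in that list. Polr1a, the large subunit of RNA polymerase I, differed by 0.13, and Ddx21, an RNA helicase of the nucleolus, by -0.12. The other 2 measured probe sets of Polr1a differed by 0.04 and 0.31. Those of Nolc1, named after the values were seen, differed by -0.39 and -0.18, beside -0.04 for its representative.

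Lrp1 encodes a large endocytic receptor that takes up midkine along with proteases and lipoproteins. Its probe sets read 10.70 and 6.40 on the wildtype array and 10.47 and 5.82 in the knockout. Both were lower, by 0.24 log2 units (-0.24) and 0.58 log2 units (-0.58, just short of 1.5-fold), and stayed lower under the other scalings. The dimmer one came near the floor in the knockout. Of its relatives and partners 10 were measured, 7 lower and 3 higher, beside 59.8% lower of all measured genes. Their median was -0.13 and none passed 1.5-fold. Vldlr, a lipoprotein receptor that also binds reelin, came nearest at 8.64 and 8.05, a difference of -0.58, and its other 2 measured probe sets differed by -0.84 and 0.10. Apoe, a lipoprotein ligand of this family, read 8.18 and 7.84, a difference of -0.34. Lrpap1, the chaperone of Lrp1 and named after the values were seen, differed by 0.10.

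By representative probe set 8 of the 9 measured members were lower in the knockout, against 59.8% of all genes measured on both arrays. Mdk, chosen for its lower signal, is among the lower ones in this and the following counts, so nothing is read from them. The median of the 9 was -0.13, beside -0.05 over all measured genes, and that of the 8 without Mdk was -0.12. With the median difference set to 0, 6 of the 9 were lower, against 47.6% of all genes. With quantile normalization and with loess centring 7 of the 9 were lower, against 44.8% and 47.3%. The sign of Sdc2 turned under all 3, and that of Ncl with the median difference set to 0. With the mean over measured probe sets Ptn, Sdc3 and Sdc4 turned to 0.002, 0.04 and 0.05, and no other measured member changed sign. Without Mdk the differences ran from -0.26 for Sdc1 to 0.14 for Ptprz1, and every one of the 23 measured probe sets of these genes lay between -0.58 and 0.23.

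**Figure D3:**
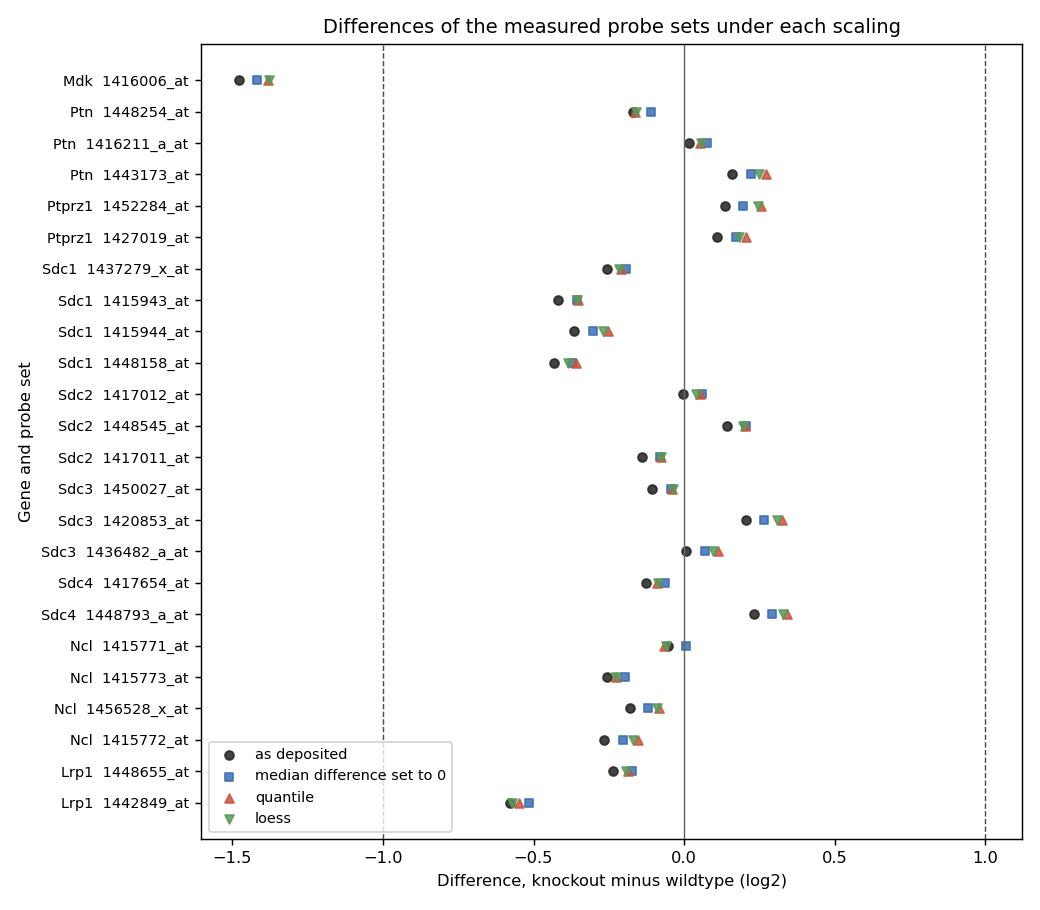
Difference between the knockout and the wildtype signal, in log2 units, for the 24 member probe sets measured on both arrays, with the values as deposited and under 3 other scalings; dashed lines mark 2-fold. Mdk lies between -1.48 and -1.38 under every scaling, Sdc1 and Lrp1 stay below 0, and 1 probe set each of Sdc2 and Ncl crosses 0.

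Further binding partners of the ligands were compared from a list chosen with earlier results of these data known. Of 16 genes 12 were measured on both arrays, 5 lower and 7 higher, with a median of 0.02 and none past 1.5-fold by its representative probe set. Vcan, which encodes the chondroitin sulfate proteoglycan versican and was named after the values were seen, read 10.92 and 10.76, a difference of -0.16, while its other 2 measured probe sets differed by -0.99 and -0.28. Lrp6, the Wnt co-receptor that also binds midkine, read 8.35 and 8.04, a difference of -0.31, and its second probe set differed by 0.11 the other way. Notch2, a Notch receptor, read 9.23 and 8.97, a difference of -0.25. The integrin chains of the list were named after the values were seen. By representative probe set they differed by 0.24 for Itga6, 0.15 for Itga4, 0.11 for Itgb3, 0.10 for Itgb1 and 0.03 for Itgav. The second measured probe set of Itgb3 differed by -0.07, and the other 2 of Itgb1 by 0.00 and 0.15. Nrp1, a receptor shared with semaphorins and likewise named after the values were seen, differed by 0.10. Its other 3 measured probe sets ran from -0.10 to 0.21. The heparan sulfate proteoglycan Gpc2 was at the floor, with 5.60 in the wildtype and 5.27 in the knockout.

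The sugar chains that bind both ligands are built by sets of enzymes. For heparan sulfate 17 of 20 genes with a probe set were measured, 11 lower and 6 higher, with a median of -0.12 and none past 1.5-fold. Under each other scaling 9 of the 17 were lower. Over all measured genes the share lower was 59.8% as deposited and 44.8% to 47.6% under the other scalings. Hs6st1, which adds sulfate at the 6-O position of glucosamine, read 8.35 and 7.82, a difference of -0.53. Xylt2, a xylosyltransferase that starts the chain, read 6.00 and 5.56, a difference of -0.44, near the floor. For chondroitin and dermatan sulfate 13 of 16 genes were measured, 11 lower and 2 higher, with a median of -0.16. Under each other scaling 8 of the 13 were lower, to be read beside the same shares over all measured genes. Csgalnact1, which commits the linker to chondroitin sulfate, was the 1 gene past 1.5-fold. It read 8.81 and 8.06, a difference of -0.75, and its second probe set differed by -0.98. Chst15, which makes the highly sulfated chondroitin that midkine binds tightly, was named after the values were seen and read 7.53 and 7.37.

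Of other proteoglycans with heparan sulfate 9 were measured, 7 lower and 2 higher, beside 59.8% lower of all measured genes. Under the other scalings 6 or 7 of the 9 were lower, beside 44.8% to 47.6%. The median of the 9 was -0.28. It was -0.24 to -0.22 under the other scalings, and -0.28 to -0.11 over all 10 alternatives of scaling, added constant, probe set rule and floor. Col18a1, a basement membrane collagen that carries heparan sulfate, was the 1 gene past 1.5-fold as deposited, at 8.22 and 7.52. Its difference was -0.69 and that of its second probe set -0.65, and after quantile normalization it was -0.57, just short of 1.5-fold. Named after the values were seen, Gpc1, a lipid-anchored glypican, differed by -0.55 to a knockout signal of 9.45, and Tgfbr3, the co-receptor betaglycan, read 8.05 and 7.52, a difference of -0.53. Gpc3, a glypican of growing embryonic tissue and likewise named after the values were seen, was 0.27 higher.

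Substrates, matrix and cell adhesion ligands and other partners of Ptprz1 had 8 of 11 measured, 7 lower and 1 higher and a median of -0.06. Arhgap35, a GTPase-activating protein, and Add1, the membrane skeleton protein alpha-adducin, differed by -0.17 and -0.16. With each other scaling 4 of the 8 were lower. Over all measured genes the share lower was 59.8% as deposited and 44.8% to 47.6% under the other scalings.

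Other secreted factors that bind heparin differed in both directions, with 7 lower and 8 higher of 15 measured and a median of 0.05. Fgf2, a fibroblast growth factor, differed by 0.79, from a wildtype signal of 5.51, near the floor, to 6.30. Igfbp5, a binding protein for insulin-like growth factors, read 11.29 and 10.46, a difference of -0.83, while its second probe set differed by 0.23 the other way. Slit3, a guidance factor for migrating cells, read 8.18 and 7.55, a difference of -0.63 that was -0.57 to -0.51 under the other scalings, short of 1.5-fold. These factors are members of other families. As deposited 3 of the 15 passed 1.5-fold, beside 1.61% lower and 0.832% higher at that size over all measured genes.

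Genes of retinoic acid transport, synthesis and response were listed because midkine is a retinoic acid-induced gene. Of 11 measured genes 9 were lower, 1 was higher and 1 was level, beside 59.8% lower of all measured genes. With the median difference set to 0 and with quantile normalization 7 were lower, beside 47.6% and 44.8% of all measured genes. With loess centring 9 were lower, beside 47.3%. The median was -0.11, and -0.05 to -0.02 under the other scalings. Crabp2, the binding protein that carries retinoic acid to its nuclear receptor, was the 1 gene past 1.5-fold. Its signals were 10.52 (wildtype) and 9.64 (knockout), a difference of -0.88 that was -0.82 under each other scaling. Named after the values were seen, Dhrs3, a retinaldehyde reductase that is itself induced by retinoic acid, read 8.04 and 7.50, a difference of -0.54. Rarb, the receptor gene whose promoter carries the classical response element, was also named after the values were seen and read 5.89 and 5.84. Cyp26a1, the retinoic acid-degrading enzyme, was below both floors.

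**Figure D4:**
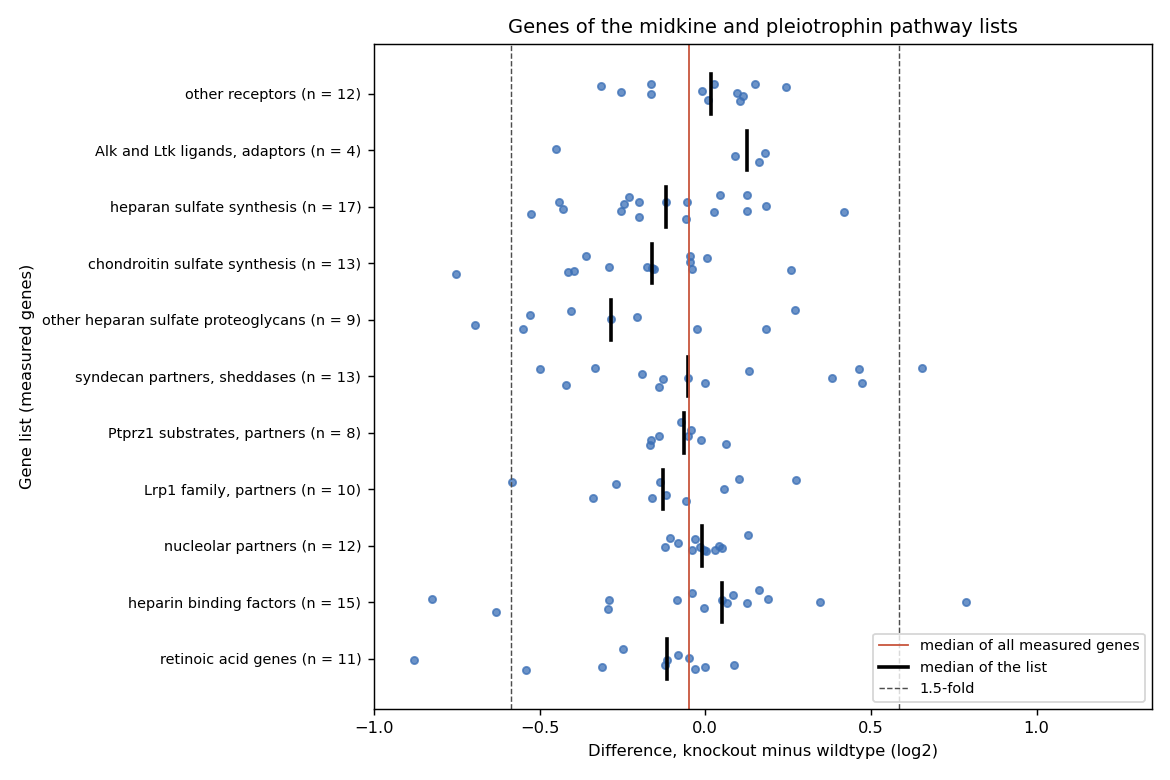
Difference between the knockout and the wildtype signal, in log2 units, of each gene measured on both arrays in 11 pathway lists (points), with the median of each list (black bar), the median of all measured genes (red line, -0.05) and 1.5-fold (dashed). List medians lie between -0.28 for other heparan sulfate proteoglycans and 0.13 for Alk and Ltk adaptors.

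The genes whose difference lay nearest that of Mdk, over 2 arrays, were Ifi202b at -1.48, Ccn5 at -1.47, Coch at -1.50 and Taf15 at -1.54, with gaps of 0.00298, 0.0121, 0.0173 and 0.0567 log2 units. Ccn5, a matricellular protein, read 9.07 and 7.61, and Coch, the matrix protein cochlin, 8.25 and 6.75. Ifi202b, an interferon-inducible gene, read 8.71 and 7.23, and Taf15, an RNA-binding protein, 7.89 and 6.35. Likeness over 2 arrays is a single number per gene and says nothing of shared control.

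Midkine is made by several cell types of the embryo, so markers of cells that such cultures can hold are given beside its difference. Summed linear signals are carried mostly by the brightest probe sets and do not measure amounts of cells. Of all genes measured on both arrays, 59.8% were lower in the knockout as deposited. Of 10 epithelial markers 4 were measured on both arrays, all higher in the knockout, with a summed linear signal of 511 in the wildtype and 730 in the knockout. Cldn4 was 1.13 higher, and Cdh1, Krt14, Cldn7 and Esrp1 were below both floors. Of 8 endothelial markers 4 were measured, all higher by representative probe set, with sums of 804 and 1298. Egfl7, named after the values were seen, differed by 0.11, but its other 2 measured probe sets differed by -0.25 and -0.02. The other measured probe sets of Flt1, likewise named after the values were seen, were higher by 0.10 to 0.21. Emcn was 1.47 higher, and Pecam1, Cdh5, Tie1 and Tek were below both floors. Of 8 macrophage markers 7 were measured, 6 lower and 1 higher, with sums of 3478 and 2741. Lyz2, the brightest of them and named after the values were seen, read 11.20 and 10.74. Mrc1 was 0.59 log2 units lower (-0.59). Csf1r, the 1 higher marker and named after the values were seen, read 9.26 and 9.32. Its other 2 measured probe sets differed by -0.21 and 0.15. Of 6 cartilage and bone markers with a probe set 2 were measured, Sox9 and Col2a1, both lower by 0.34 log2 units (-0.34), with sums of 1215 and 960 and Alpl and Ibsp below both floors. Of the 10 fibroblast markers 7 were lower and 3 higher, with sums of 93597 and 82052. Col1a1 and Pdgfra differed by -0.95 and -0.73, and the second measured Col1a1 probe set by -0.33. Other measured probe sets of Col1a2, named after the values were seen, differed by -1.37 and -0.26, beside -0.15 for its representative. Those of Col3a1 and Fn1, likewise named after the values were seen, differed by -0.56 and -0.77, beside -0.34 and -0.10. Vim, also named so, was 0.05 higher, but its other probe sets differed by -0.07 and -0.06. Dcn, the proteoglycan decorin, differed by 0.74. The part of any of these cells in the midkine difference was not tested.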

How the data were processed

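The authors deposited 1 value per probe set for each Affymetrix Mouse430_2 array, taken here as log2 signals from their range, 2.09 to 14.71. How these were summarized and normalized is not stated in the labels or the file. Per the labels' protocols, biotin labelling started from 100 ng of RNA and used a kit that copies transcripts from the 3′ end.

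Of 45101 probe sets, 64 were controls, 34958 had 1 gene symbol in the platform annotation, 932 had several and 9160 non-control ones had none. RefSeq gene identifiers matched 34754. A gene was represented by its probe set with the highest mean. The differences were used as deposited, since their median over measured probe sets was -0.06. With 1 array per group a fixed size stands in for a test.

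The members and lists were chosen with earlier results of these data known. The rule for named genes was every member probe set, each list's measured genes past 1.5-fold or else its 2 with the largest difference, and the 4 genes nearest Mdk. Sex-linked genes, genes below the floors and genes marked so in the text were named after their values were seen. Of 216 list names, 12 matched no probe set with 1 symbol. Alternatives were 3 scalings, 16 or 64 added to linear values, 3 probe set rules, floors at the 40th and 75th percentile and sizes of 1.5-fold and 3-fold. Python 3.11.15, pandas 2.3.3 and statsmodels 0.14.6 (loess span 0.3) were used.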

Additional observations from a re-analysis of the deposited data

How the results depend on the processing

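No paired analysis was possible because there was only 1 array of each genotype. Over 10 alternatives of scaling, constant, probe set rule and floor, Mdk stayed between -1.48 and -1.25, the last with 64 added to linear values, which shrinks every difference. The 3 probe set rules and the other floors could not change the Mdk difference, since Mdk has 1 probe set. Mdk passed 2-fold under the scalings and the added constants, and no member passed 3-fold (0 of 9). Representative differences ranged from -0.42 to -0.19 for Sdc1, -0.41 to -0.17 for Lrp1 and 0.10 to 0.26 for Ptprz1, with no change of sign. Those of Ptn (-0.17 to 0.02), Sdc2 (-0.07 to 0.06), Sdc3 (-0.11 to 0.04), Sdc4 (-0.13 to 0.05) and Ncl (-0.19 to 0.01) changed sign in 1 to 3 of the 10. The 30 lower genes past 2-fold became 17 with 64 added, 19 with the median over all probe sets, 13 with the floor at the 75th percentile, 182 at 1.5-fold and 3 at 3-fold. The 8 higher ones became 4 with 16 added, 4 with 64 added, 5 without probe sets of the _x_at, _s_at and _a_at types, 2 with the floor at the 75th percentile, 94 at 1.5-fold and 1 at 3-fold. Of 170 list medians 15 moved by over 0.1, a limit chosen after the values were seen, and none of the 15 changed sign. Medians near 0 that moved less did change sign. Of the 10 alternatives, this held in 4 for the nucleolar list and 2 for other heparin-binding factors. It held in 1 each for the syndecan and the Ptprz1 partners. With 64 added the medians were 0.34 for epithelial, 0.31 for endothelial and -0.21 for macrophage markers. With the mean over measured probe sets they were -0.14 for other heparan sulfate proteoglycans, -0.44 for fibroblast and 0.39 for epithelial markers, and the median over all probe sets gave -0.11, -0.37 and 0.39 for these and 0.33 for endothelial markers. Without those probe set types they were -0.35 for fibroblast, -0.24 for neural and 0.80 for epithelial markers. Chondroitin sulfate synthesis was at -0.055 with quantile normalization and macrophage markers at -0.20 with the higher floor. Apart from the added constant and the smaller sets of genes or probe sets, the cause was not tested. Signals near the floor, such as the dimmer Lrp1 and the Fgf2 probe set, limit what these values show.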
